A study of Mus musculus with 2 samples.

Results

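The interferon-response genes described here are Stat2, Irf7, Isg15, Ifit2, Ifitm3, Bst2, Ifi27, Xaf1 and Rtp4, 9 named genes of the 16550 that both deposited files list. They were followed through 2 Drop-seq libraries of mouse medulloblastoma, a tumour of the cerebellum, with 1 library per age. Drop-seq captures single cells in droplets with barcoded beads and counts messenger RNA from its 3′ end, ideally as unique molecular identifiers (UMIs), which count molecules rather than copies. Both groups carried the genotype hGFAPcre;Ptchc/c, in which a human GFAP promoter fragment drives Cre and the Ptch gene, a brake on Sonic hedgehog signalling, is conditional. The younger group was collected on postnatal day 12 (P12), the older on postnatal days 24 to 30 (P24-30), and no animals without the mutation were part of the comparison. GFAP promoter activity is not limited to 1 cell type of the young cerebellum, and nothing used here gives the number of animals, any pooling of them or how barcodes were chosen.

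Interferons are signalling proteins that cells release on sensing viral or misplaced nucleic acid. Type I interferon binds a receptor that activates the kinases Jak1 and Tyk2, and these switch on a complex with Stat2 and Irf9 that binds interferon-stimulated response elements in the promoters of target genes. Irf7 amplifies the response by inducing more interferon, and the remaining genes of the group are induced targets, several of which block viruses at entry, translation or release. In the brain, microglia, endothelium, astrocytes and choroid plexus are all known to respond to interferon.

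After filtering, 5723 cells were kept at P12, with a median of 1805 UMIs, and 4789 at P24-30, with a median of 2193. Cells were grouped by clustering without the 9 genes and without the rest of the interferon pathway, and clusters were named from marker genes. Tumour cells, which are all clusters left after the glial, immune, vascular and very shallow ones, numbered 5486 at P12 and 4436 at P24-30, and 4751 and 3869 of them held at least 3 of 10 granule progenitor markers. Microglia-like cells numbered 81 and 49, of which 79 and 47 held at least 3 of 14 microglial markers. Astrocyte- or Bergmann-glia-like cells numbered 44 and 41, oligodendrocyte-lineage-like cells 106 and 44, and cells of a mixed choroid plexus and vascular cluster 5 and 21. Tumour clusters were almost entirely split by library, so age, library and the way each file was counted cannot be told apart in any comparison of ages. No value below has a replicate, no test was possible, and all intervals are exact 95% intervals for counting error only.

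The promoter sequences show which of the 9 genes carry the letters of an interferon-stimulated response element close to their start. The core of this element, GAAA followed by any 2 bases and by GAAA again, was searched on both strands of the 250 bases before each RefSeq gene start (GRCm38.p6, the assembly known as mm10), and 7 of the 9 genes were in the RefSeq table. Isg15, Bst2 and Stat2 held the core, against 2.98% of all 32851 windows of that length. In the lines below, capitals mark the bases of every match, and each sequence runs 5′ to 3′ on the gene's own strand. Isg15 (chr4:156200819-156201068, minus strand) held 3 overlapping matches that begin 78, 72 and 66 bases before the start. Bst2 (chr8:71537473-71537722, minus strand) held 2 overlapping matches, at 130 and 124 bases, and Stat2 (chr10:128270248-128270497, plus strand) held 1 on the opposite strand at 222 bases. Xaf1 (chr11:72301379-72301628, plus strand), the gene with the highest age ratio in tumour cells, is shown as a window with no match.
Isg15: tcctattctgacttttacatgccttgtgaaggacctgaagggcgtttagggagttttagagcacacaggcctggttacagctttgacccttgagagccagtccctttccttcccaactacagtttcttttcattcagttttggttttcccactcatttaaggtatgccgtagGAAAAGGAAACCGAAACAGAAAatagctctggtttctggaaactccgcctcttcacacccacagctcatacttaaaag
Bst2: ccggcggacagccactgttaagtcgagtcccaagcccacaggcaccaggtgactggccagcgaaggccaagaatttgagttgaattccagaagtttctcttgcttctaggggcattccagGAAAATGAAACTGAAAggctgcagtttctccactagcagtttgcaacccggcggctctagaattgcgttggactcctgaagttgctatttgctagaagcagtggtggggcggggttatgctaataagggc
Stat2: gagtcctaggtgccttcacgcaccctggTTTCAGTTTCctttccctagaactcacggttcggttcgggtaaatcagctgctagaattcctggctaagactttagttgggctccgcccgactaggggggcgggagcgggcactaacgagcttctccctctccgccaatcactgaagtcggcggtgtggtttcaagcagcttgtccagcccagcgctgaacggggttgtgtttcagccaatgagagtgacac
Xaf1: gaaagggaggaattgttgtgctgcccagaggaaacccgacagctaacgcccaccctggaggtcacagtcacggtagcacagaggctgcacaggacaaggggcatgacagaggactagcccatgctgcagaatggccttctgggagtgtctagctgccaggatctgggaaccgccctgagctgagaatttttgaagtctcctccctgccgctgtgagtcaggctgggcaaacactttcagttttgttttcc

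A second motif, the STAT-binding core TTCNNNGAA, was found in the windows of Bst2 at 136 bases, where it overlaps the first match of the other core, and of Ifit2 at 241 bases. This core occurred in 7.02% of all windows. Ifitm3, Irf7 and Xaf1 held neither core in 250 bases. A match is a description of letters and shows no binding.

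On mm10 with GENCODE vM21 the genes lie on 8 chromosomes. Stat2 is at chr10:128270559-128292849, Irf7 at chr7:141262706-141266481, Isg15 at chr4:156199424-156200818, Ifit2 at chr19:34550694-34576419 and Ifitm3 at chr7:141009586-141010770. Bst2 is at chr8:71534255-71537456, Ifi27 at chr12:103434211-103440239, Xaf1 at chr11:72301629-72313733 and Rtp4 at chr16:23520291-23614222. The last 500 bases of a transcript are what 3′ counting mostly reads, and there Xaf1 shares a stretch of at least 50 bases at 95% identity or more with 392 other listed genes and Stat2 with 24, the longest being 91 and 149 bases. Reads from such stretches could be assigned to another gene, so the values of Xaf1 and Stat2 are uncertain. Exons of Irf7 touch those of Phrf1 on the other strand and exons of Rtp4 touch those of Gm45338 on the same strand, and nothing used here says whether the counting used strand.

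Levels are given as CPM, the gene's UMIs per 1000000 UMIs of all genes, summed over the cells of a class. They can be compared between classes of 1 library for 1 gene but not between genes. Between ages the CPM of the median gene also shifted, and the age ratios given later are divided by that shift. The transcription factors come first. Stat2, a subunit of the type I interferon complex, was with Ifit2 one of the 2 genes of the group whose tumour levels lay within 2-fold of each other at the 2 ages. It stood at 15.5 CPM in P12 tumour cells (13.3 to 18.0, 176 UMIs) and at 18.1 CPM at P24-30 (15.7 to 20.7, 205 UMIs). Microglia-like cells held 29.5 CPM at P12 (10.8 to 64.2, 6 UMIs) and 71.1 CPM at P24-30 (32.5 to 135, 9 UMIs), so the classes overlapped within counting error at P12 and not at P24-30. Astrocyte- or Bergmann-glia-like cells held 1 and then 10 UMIs of Stat2, which is 11.2 and 64.7 CPM, and oligodendrocyte-lineage-like cells 7 and then 3.

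Irf7, the factor that amplifies interferon production, was nearly absent from tumour cells, with 2 UMIs at P12 and 10 at P24-30 (0.882 CPM, 0.423 to 1.62). Microglia-like cells held 2 UMIs at P12 and 8 at P24-30 (63.2 CPM, 27.3 to 125). Of these 8 UMIs, 6 lay in 1 cell, so the class level at P24-30 is largely the level of that cell. No Irf7 UMI was counted in oligodendrocyte-lineage-like cells at either age, which allows up to 18.6 CPM at P12 and 39.4 CPM at P24-30.

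Among the antiviral effectors, Bst2 and Ifitm3 set microglia-like cells most clearly apart from the tumour. Bst2 encodes tetherin, which holds budding virus particles on the cell surface. It had 1 UMI in all P12 tumour cells and 8 at P24-30 (0.706 CPM, 0.305 to 1.39), against 6 UMIs in P12 microglia-like cells (29.5 CPM, 10.8 to 64.2) and 44 at P24-30 (347.8 CPM, 253 to 467). The P24-30 UMIs of Bst2 lay in 21 of 49 microglia-like cells with at most 9 in 1 cell, while the P12 UMIs lay in 6 of 81. After each cell was thinned to 500 UMIs, 0 of 81 and 7 of 49 microglia-like cells still held one, which is at most 4.45% and 14.3% (5.94 to 27.2%).

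Ifitm3, a membrane protein that hinders virus entry, was counted at 1.14 CPM in P12 tumour cells (0.609 to 1.96, 13 UMIs) and 5.65 CPM at P24-30 (4.35 to 7.21, 64 UMIs). Its microglia-like levels were 44.2 CPM at P12 (20.2 to 84.0, 9 UMIs in 5 cells, 5 of them in 1 cell) and 284.5 CPM at P24-30 (199 to 394, 36 UMIs in 16 cells). Astrocyte- or Bergmann-glia-like cells held 78.3 CPM at P12 (7 UMIs) and 149 CPM at P24-30 (23 UMIs in 7 cells). Ifitm3 was thus above the tumour level in both of these classes at both ages, and it was at 0 in oligodendrocyte-lineage-like cells at both ages.

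Isg15, a ubiquitin-like protein that is attached to other proteins, was scarce everywhere. It had 1 and 8 UMIs in tumour cells at P12 and P24-30, 3 and 4 in microglia-like cells, and 0 and 5 in astrocyte- or Bergmann-glia-like cells, where all 5 lay in 1 cell. Ifit2, which binds viral RNA and limits its translation, differed from the other effectors in being well counted in tumour cells at both ages. Its tumour level was 24.7 CPM at P12 (21.9 to 27.7, 280 UMIs) and 17.9 CPM at P24-30 (15.5 to 20.6, 203 UMIs). The microglia-like level of 63.9 CPM at P12 (34.0 to 109) came from 13 UMIs that all lay in 1 cell, and at P24-30 it was 39.5 CPM (12.8 to 92.2, 5 UMIs in 4 cells). Without that 1 cell no Ifit2 UMI remained in the P12 microglia-like class.

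The other induced genes held the widest age gap in the tumour. Ifi27, a small interferon-induced membrane protein of mitochondria and other membranes, had 25 UMIs in 23 P12 tumour cells (2.20 CPM, 1.42 to 3.25) and 374 UMIs in 299 P24-30 tumour cells (33.0 CPM, 29.7 to 36.5). No tumour cell held more than 5 of them, so the P24-30 level was spread over many cells. Microglia-like cells held Ifi27 at 108 CPM at P12 (67.8 to 164, 22 UMIs) and 118.6 CPM at P24-30 (66.4 to 196, 15 UMIs), wide intervals that overlap. In oligodendrocyte-lineage-like cells Ifi27 stood at 30.3 CPM at P12 (11.1 to 66.0, 6 UMIs) and 149.6 CPM at P24-30 (81.8 to 251, 14 UMIs in 9 cells), intervals that do not overlap.

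Xaf1, a protein that counters an inhibitor of apoptosis, had 4 UMIs in P12 tumour cells (0.352 CPM, 0.0960 to 0.902) and 96 in 87 P24-30 tumour cells (8.47 CPM, 6.86 to 10.3). Its microglia-like levels were 39.3 CPM (17.0 to 77.5, 8 UMIs) and 47.4 CPM (17.4 to 103, 6 UMIs). As for Ifi27, the microglia-like intervals of Xaf1 overlapped between the libraries and its tumour intervals did not. With 8 and 6 UMIs, a difference between the microglia-like levels could be missed. Rtp4, a chaperone of membrane receptors that is also interferon-induced, had 2 and 9 UMIs in tumour cells and 4 and 7 in microglia-like cells (19.7 CPM, 5.36 to 50.3, and 55.3 CPM, 22.2 to 114). At P24-30 the 44 oligodendrocyte-lineage-like cells held 7 Rtp4 UMIs in 3 cells (74.8 CPM, 30.1 to 154) and the 106 at P12 held 1.

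The mixed choroid plexus and vascular cells of P24-30, only 21 in number, held the highest levels of 4 of the 9 genes among the 5 classes described at that age. Ifitm3 reached 642.6 CPM (529 to 774, 111 UMIs in 16 cells, 34 of them in 1 cell) and Ifi27 382 CPM (296 to 486, 66 UMIs in 14 cells, 21 of them in 1 cell). Xaf1 stood at 92.6 CPM (52.9 to 150) and Isg15 at 52.1 CPM (23.8 to 98.9), while Bst2, at 185 CPM (127 to 262), was below its microglia-like level. When the P24-30 library was clustered alone, 10 of its cells formed an endothelial-like cluster in which Ifitm3 stood at 1300 CPM (1003 to 1656, 65 UMIs). Rtp4, at 69.5 CPM (35.9 to 121), was near its oligodendrocyte-lineage-like level of 74.8 CPM, and the interval of Isg15 overlapped that of microglia-like cells (8.61 to 80.9).

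**Figure D1:**
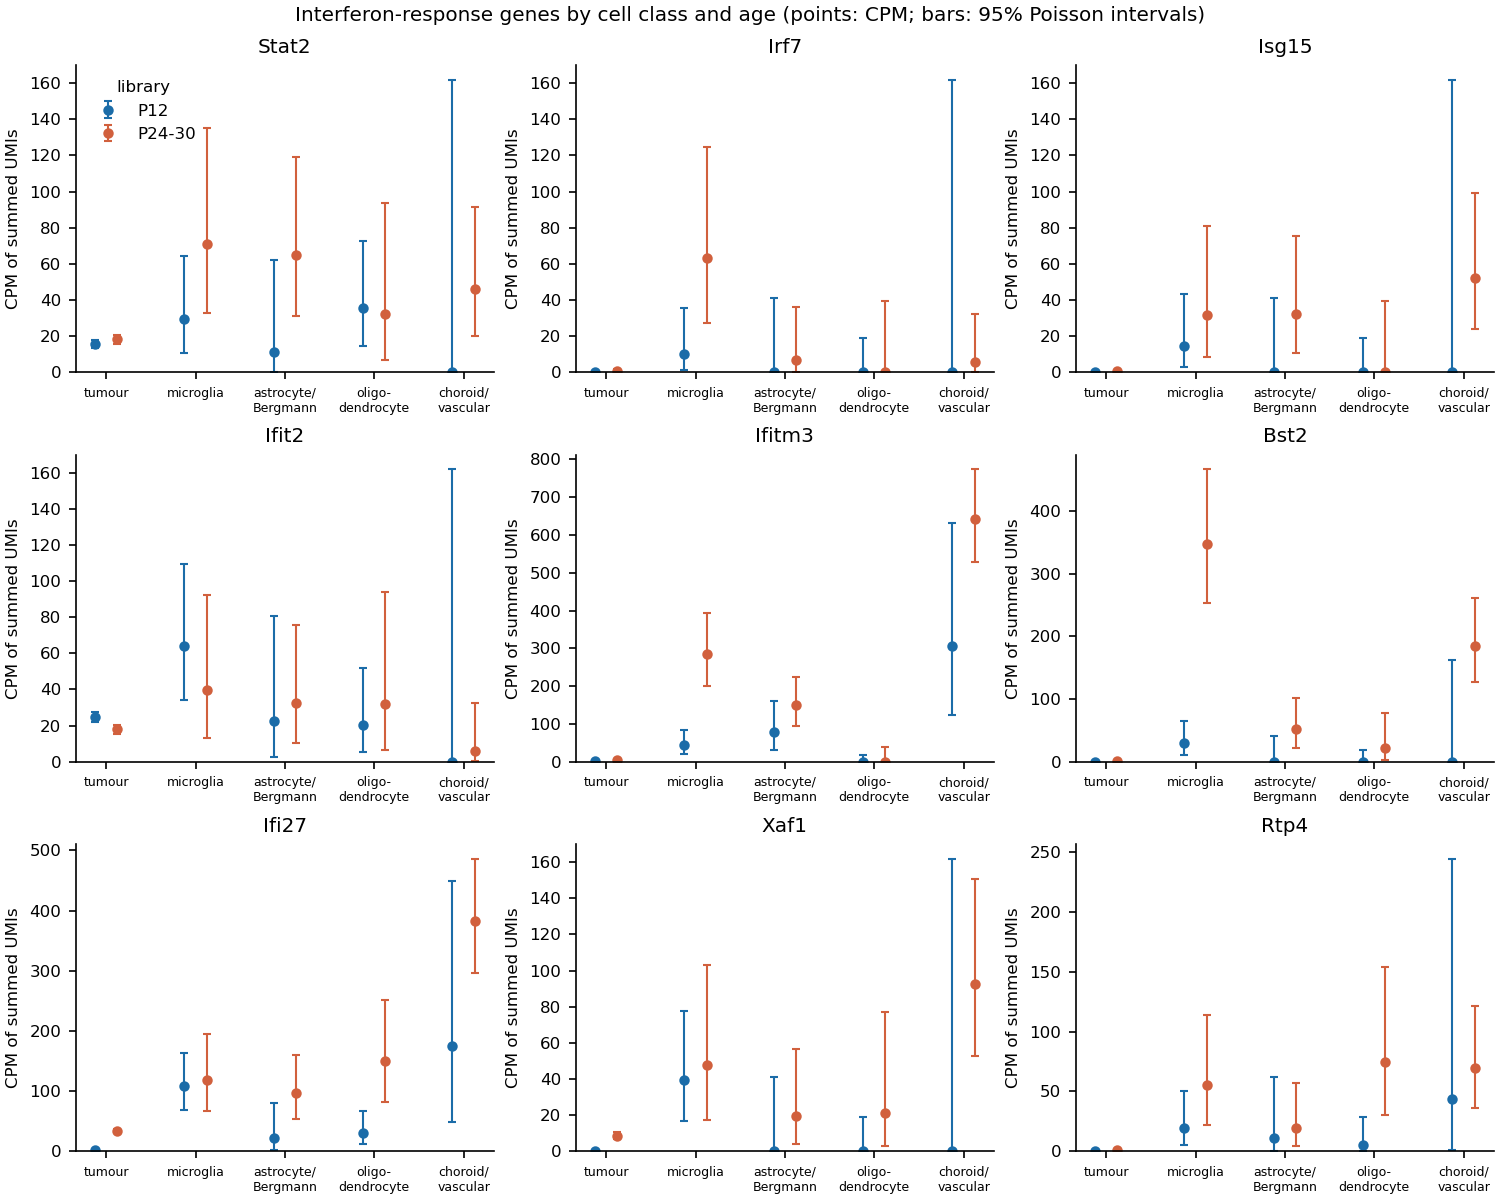
CPM of each gene (vertical axes, linear, from 0) by cell class (horizontal axes) and library (colours), with points for the summed level and bars for exact 95% Poisson intervals. Ifi27 is at 108 and 118.6 CPM, with wide intervals, in microglia-like cells of the 2 libraries and at 2.20 and 33.0 CPM in tumour cells. Bst2 is at 29.5 and 347.8 CPM in microglia-like cells.

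The direct comparison of microglia-like with tumour cells asks which of these genes mark the immune cells of the tumour. At P24-30 all 9 genes reached 10 UMIs over both classes and all 9 were at least 2-fold higher in microglia-like cells, where 17.0% of 13306 genes were. At P12 only 5 of the 9 reached 10 UMIs and 4 of these were at least 2-fold higher, against 17.4% of 12851 genes. A gene that reached the minimum through the class where it is high had to differ, which limits what such a count can say. The P24-30 ratios were 493 for Bst2 (229 to 1212), 71.7 for Irf7 (24.6 to 202), 69.7 for Rtp4 (22.1 to 210), 50.4 for Ifitm3 (32.5 to 77.0) and 44.8 for Isg15 (9.87 to 167). They were far smaller for Xaf1 at 5.60 (2.01 to 12.6), Stat2 at 3.93 (1.77 to 7.61), Ifi27 at 3.59 (1.99 to 6.00) and Ifit2 at 2.21 (0.709 to 5.23), whose interval holds 1.

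At P12 Ifi27 and Xaf1 belonged to the wide-ratio genes, at 49.1 (26.4 to 90.8) and 112 (29.9 to 507). Ifitm3 stood at 38.6 (14.6 to 97.7) and Ifit2 at 2.59 (1.36 to 4.50), the latter from the single cell named above. Stat2, at 1.90 (0.689 to 4.23), did not reach 2-fold.

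Free RNA in the droplets gives every cell some UMIs of genes it does not express, so the tumour levels were set beside those of microglial markers. Summed over 14 microglial markers, tumour cells held 31.3 CPM at P12 and 25.8 CPM at P24-30, which is 0.0940% and 0.0999% of the microglia-like level. Single markers ranged from 0.0484% to 0.489% at P12 and from 0, for Tmem119, to 0.262% at P24-30. The tumour level of Bst2 was 0.299% and 0.203% of its microglia-like level, inside both ranges. Irf7, Isg15 and Rtp4 lay at 1.79%, 0.597% and 0.896% at P12 and at 1.40%, 2.23% and 1.44% at P24-30, on 1 to 10 tumour UMIs each.

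Ifi27 and Xaf1 lay at 2.04% and 0.896% at P12. Apart from Bst2, these percentages were above the marker ranges, on few tumour UMIs, and how much of them is free RNA was not tested.

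After each cell was thinned to 500 UMIs, P24-30 tumour cells held Irf7 in 0.0451%, Isg15 in 0.0676%, Bst2 in 0.0451% and Rtp4 in 0% of cells (at most 0.0831%). The microglial marker C1qb was seen in 0.201% of tumour cells at P12 (median depth 1808 before thinning) and 0.180% at P24-30 (median depth 2250). C1qb had 806 UMIs in P12 microglia-like cells, where the 9 genes had 2 to 22 each, so its share sets no background level for genes this scarce. At P12 the thinned share of Ifi27 was 0.0913% and that of Xaf1 0.0183%.

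At P24-30 Ifi27 and Xaf1 were above the marker range, on few microglia-like UMIs, and how much of this is free RNA was not tested. Their tumour levels were 27.8% and 17.9% of the microglia-like levels, and 8.64% and 9.15% of those in choroid plexus and vascular cells. Ttr, the most abundant choroid plexus marker, had a tumour level of 0.115% of that class. Ifi27 was seen in 6.74% of tumour cells before thinning and in 1.40% after (1.07 to 1.79%), and Xaf1 in 1.96% and 0.428% (0.258 to 0.668%). Ifitm3 lay between, with a tumour level of 1.99% of the microglia-like one and a thinned share of 0.248% (0.124 to 0.443%). An alternative added after the data were seen kept only tumour cells with no UMI of any immune, endothelial, pericyte or fibroblast marker. There the age ratios were 18.6 for Ifi27, 25.3 for Xaf1 and 7.86 for Ifitm3, all inside the counting intervals of the values over all tumour cells given next. These markers were scarce in tumour cells (292 microglial UMIs in 4436 P24-30 cells), so most cells stayed and the ratios had little room to move. Choroid plexus, astrocyte and oligodendrocyte markers were not part of this choice, and nothing on free RNA is read from it.

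The age comparison in tumour cells asks how these genes stood in the later tumours against the earlier ones. The ratio of CPM, P24-30 over P12, was divided by that of the median gene, which was 0.812, and genes needed 50 UMIs over both libraries. Xaf1 stood at 29.6 (11.2 to 111), Ifi27 at 18.5 (12.3 to 28.9) and Ifitm3 at 6.08 (3.31 to 12.0). The interval of Xaf1 does not cover the uncertainty from its shared 3′ sequence given above. Stat2 was at 1.44 (1.17 to 1.77) and Ifit2 at 0.895 (0.743 to 1.08). So 3 of the 5 measured genes were at least 2-fold higher at P24-30 and 0 were lower, where 10.4% of 11488 genes were higher and 3.84% lower. Xaf1, and in part Ifi27 and Ifitm3, reached 50 UMIs through their P24-30 counts, so this count had little room to come out otherwise. The genes of the group were also chosen with earlier results of these data known. Irf7, Isg15, Bst2 and Rtp4 stayed under the minimum, with ratios of 6.17 (1.32 to 57.9), 9.87 (1.32 to 438), 9.87 (1.32 to 438) and 5.55 (1.15 to 52.8).

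Over tumour clusters, the point values of Ifi27 and Xaf1 did not overlap between the libraries, and those of Ifitm3 did. Some intervals of Ifi27 and Xaf1 did overlap. In a P24-30 cluster of 170 cells they were 3.97 to 28.5 and 1.51 to 21.4 CPM. Ifi27 had 1.48 to 5.68 CPM in a P12 cluster of 1453 cells, and Xaf1 0 to 3.73 CPM in P12 neuron-like cells. The share of all genes with such a pattern was not computed. Ifi27 ranged from 1.01 to 3.09 CPM over the 5 tumour clusters of P12 and from 12.2 to 40.6 CPM over those of P24-30, and Xaf1 from 0 to 0.617 and from 5.49 to 10.5 CPM. Ifitm3 ranged from 0.309 to 2.58 CPM and from 1.96 to 10.2 CPM. Neuron-like tumour cells held 1 Ifi27 UMI among the P12 cells and 52 among the older ones, for a ratio of 29.3 (5.03 to 1178), and 0 and 13 of Xaf1. There 1 of 2 measured genes of the group was at least 2-fold higher at P24-30 and 0 were lower, where 11.2% of 7192 genes were higher and 4.52% lower. That gene was Ifi27, which reached 50 UMIs only through its P24-30 count, so the filter fixed this result. In the other tumour cells these were 3 of 5 and 0, where 10.2% of 11219 genes were higher and 3.79% lower. Ifitm3 leaned on a cluster of 1506 P24-30 cells led by the haemoglobin genes Hbb-bt, Hba-a2 and Hba-a1. Without that cluster, an alternative added after the data were seen, Ifitm3 no longer reached 50 UMIs and stood at 3.96, while Ifi27 stood at 16.7 and Xaf1 at 29.7. The part of red blood cell RNA in the Ifitm3 value was not tested.

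Stat2 and Ifit2 varied between tumour clusters within each library. In neuron-like tumour cells Stat2 had 32.4 CPM in the younger library and 32.7 CPM in the older, against 13.9 and 14.9 CPM in the other tumour cells. High Stat2 was not limited to neuron-like cells, since a P24-30 cluster led by Cks2 and other dividing-cell genes held 29.5 CPM (21.4 to 39.7). Ifit2 went the other way, at 9.10 and 5.86 CPM in neuron-like cells and 26.1 and 20.6 CPM in the others. Over single clusters, the Ifit2 level of neuron-like cells was the lowest in each library.

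In microglia-like cells other genes had the highest age ratios. Bst2 stood at 14.7 (6.23 to 42.1), Ifitm3 at 8.0 (3.78 to 18.9), Irf7 at 8.0 (1.60 to 77.3), Rtp4 at 3.50 (0.890 to 16.3) and Stat2 at 3.0 (0.954 to 10.2). Xaf1 at 1.5 (0.429 to 4.93), Ifi27 at 1.36 (0.658 to 2.75) and Ifit2 at 0.769 (0.215 to 2.30) had intervals that hold 1. With a minimum of 10 UMIs, 5 of 8 measured genes were at least 2-fold higher at P24-30 and 0 lower, against 18.8% and 11.6% of 4946 genes, and the intervals of Rtp4 and Stat2 reached below 1. Irf7, Bst2 and Ifitm3 reached the minimum largely through their P24-30 counts, so nothing is read from this count. Whether the age ratio of a gene differs between microglia-like and tumour cells has no test here, since each class has 1 library per age. The intervals of Ifi27 (0.658 to 2.75 against 12.3 to 28.9) and of Xaf1 (0.429 to 4.93 against 11.2 to 111) do not overlap between the classes. Both genes are named here for their high tumour ratios, and their microglia-like ratios rest on few UMIs. The share of all genes with intervals apart was not computed, so nothing is read from this contrast. Single cells and the way the class was drawn moved several of these values. Without the cell that held most of its UMIs, Irf7 stood at 4.01 and Ifitm3 at 14.4. With classes taken from markers alone, Ifitm3 stood at 24.0, Ifi27 at 2.75, Xaf1 at 3.0 and Ifit2 at 4.5.

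**Figure D2:**
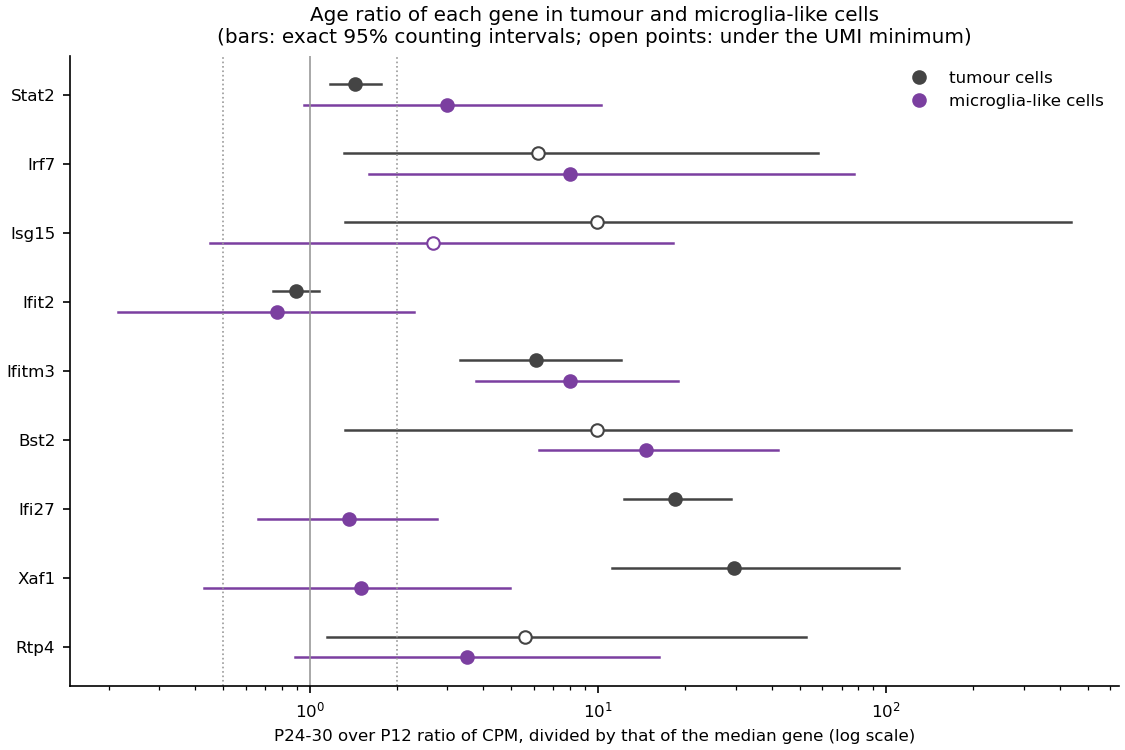
Ratio of CPM at P24-30 over P12, divided by that of the median gene (horizontal axis, log scale), for each of the 9 genes (vertical axis) in tumour and microglia-like cells, with exact 95% counting intervals and open points for genes under the UMI minimum. Ifi27 and Xaf1 stand at 18.5 and 29.6 in tumour cells and at 1.36 and 1.5 in microglia-like cells, and Bst2 at 14.7 in microglia-like cells.

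The P24-30 cells carry 16 tags, G1 to G16, in the deposited column names, which no label explains. They split 1 library and are not replicates. Over all kept cells, 8 of the 9 genes were highest in G8 or G9. These tags hold few UMIs, 85142 and 60772, and a few UMIs of a gene give a high CPM there. Xaf1 and Rtp4 were highest in G9 on 3 UMIs each and Ifit2 in G8 on 4. The share of all genes highest in these tags was not computed, so nothing is read from the count. All 35 cells of G8 were microglia-like, with Bst2 at 422.8 CPM (296 to 585, 36 UMIs in 18 cells), Ifi27 at 141 CPM (12 UMIs), Ifitm3 at 129 CPM (11 UMIs) and Irf7 at 0 (at most 43.3 CPM). G9 kept 11 of its 50 barcodes, all astrocyte- or Bergmann-glia-like, with Ifitm3 at 197.5 CPM (12 UMIs, 7 of them in 1 cell) and Isg15 at 82.3 CPM (5 UMIs, all in 1 cell). Irf7 was highest in G11, at 36.6 CPM from 7 UMIs, 6 of them in 1 microglia-like cell. G14 owed 69 of its 84 Ifitm3 UMIs to choroid plexus and vascular cells, and G13 owed 19 of its 22 Bst2 UMIs to them.

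Tumour cells could be followed through 13 tags with at least 50 of them. Ifi27 was above the P12 tumour level, with intervals apart, in 13 of 13 tags, a pattern that 4.30% of 11485 genes showed. Its level ran from 16.6 CPM in G12 (5 UMIs) to 43.2 CPM in G15 (24 UMIs), with a median of 31.8 CPM, and the intervals of these extremes overlap (5.40 to 38.8 and 27.7 to 64.3). Xaf1 was above in 10 of 13 tags, from 2.92 CPM in G16 to 13.3 CPM in G12 (4 UMIs each), and Ifitm3 in 5. The share of all genes above in only some of the tags was not computed, so nothing is read from such counts. Stat2 ran from 6.34 CPM in G2 (3.69 to 10.2) to 37.7 CPM in G11 (13.8 to 82.1), and was above P12 in 1 tag. Ifit2 lay between 0 in G12 and 26.0 CPM in G3 and was above P12 in none. Without the tag where each was highest, the age ratios of Ifi27 and Xaf1 were 18.2 and 29.2. Those tags, G15 and G12, held only 24 of 374 Ifi27 and 4 of 96 Xaf1 UMIs, so leaving them out could hardly move the ratios. G2, with 96 Ifi27 and 29 Xaf1 UMIs, was not left out.

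**Figure D3:**
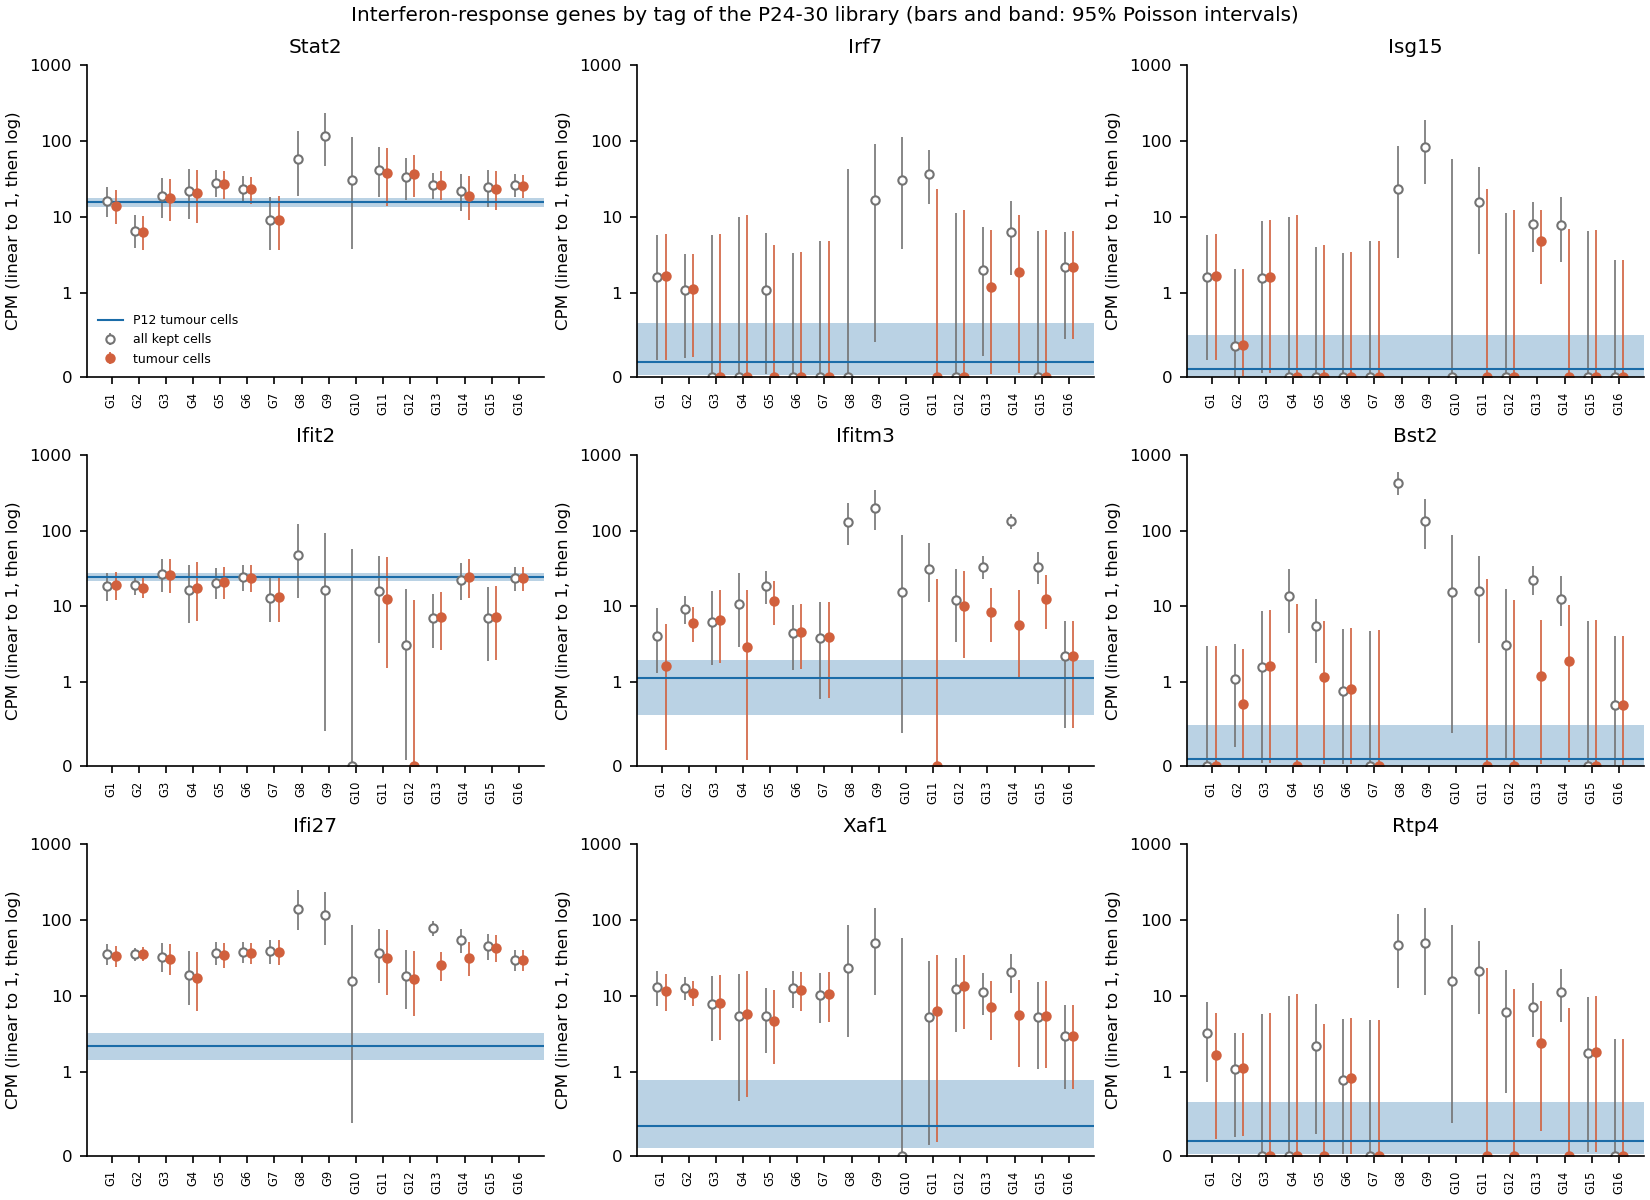
CPM of each gene (vertical axes, linear to 1, then log) in the 16 tags of the P24-30 library (horizontal axes), over all kept cells (open points) and tumour cells (filled), with 95% Poisson intervals and the P12 tumour level as a line and band. All 13 filled Ifi27 points lie between 16.6 and 43.2 CPM, above the P12 band around 2.20 CPM, and the open Bst2 point of G8 lies at 422.8 CPM.

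Cells that held several of these genes at once were a larger share of microglia-like than of tumour cells. Before thinning, at least 2 genes of the group were seen in 17.3% of P12 and 44.9% of P24-30 microglia-like cells, against 0.128% and 1.60% of tumour cells. At 500 UMIs per cell these shares were 2.47% and 6.12% of microglia-like cells, and 0% (at most 0.0673%) and 0.0451% of tumour cells. Any one of the 9 was seen at that depth in 11.1% of P12 and 46.9% of P24-30 microglia-like cells and in 2.12% and 3.99% of tumour cells. In P24-30 tumour cells, Ifi27 and Xaf1 were seen together in 11 cells, 3.68% of the 299 cells with Ifi27 and 12.6% of the 87 with Xaf1. Deep cells show more genes by depth alone, and no depth-matched expectation was computed.

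At least 4 of the 9 genes were seen in 1 P12 cell and 17 P24-30 cells, 9 of them choroid plexus and vascular, 4 microglia-like and 1 tumour. The P12 cell, a microglia-like cell of 4208 UMIs with 12 of 14 microglial markers, held 13 Ifit2, 5 Ifitm3, 2 Isg15 and 2 Xaf1 UMIs. It also held 18 UMIs of Rsad2, the antiviral enzyme viperin, and UMIs of 33 of 72 other interferon pathway genes, where the next P12 microglia-like cell held 17 and the median was 7. At P24-30, 1 astrocyte- or Bergmann-glia-like cell of tag G9 held all 9 genes, with 8 Bst2, 7 Ifitm3, 5 Isg15 and 5 Ifi27 UMIs. This cell had 12016 UMIs, 26 of Ifit3b, 20 of Ifit3, 12 of Gbp3 and UMIs of 30 pathway genes, where the class median was 2. It held 11 of 11 astrocyte markers with 206 UMIs, 6 of 14 microglial markers with 8 UMIs and 0 of 5 endothelial ones.

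A microglia-like cell of tag G11 held 6 Irf7, 6 Ifitm3 and 3 Bst2 UMIs beside 13 of Ifi27l2a and 6 of Oas1a. It held only 4 of 14 microglial markers with 7 UMIs, where the P12 cell held 12 with 80 UMIs, so its class is less certain. The vascular cell with most Ifitm3, 34 UMIs, had 15408 UMIs and all 5 endothelial markers, and the choroid plexus cell with most Ifi27, 21 UMIs, had 50208 UMIs and all 7 choroid plexus markers. Doublets were not removed, and whether any of these cells held RNA of more than 1 cell was not tested.

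The rest of the interferon pathway gives the setting for the tumour values. Of 86 listed genes, 72 were in both files, and no interferon ligand was. In tumour cells 36 reached 50 UMIs, with a median log2 ratio of 0.05 relative to the median gene. Of these, 2 were at least 2-fold higher at P24-30, 3 were at least 2-fold lower and 31 lay between. Over all 11488 genes measured, 10.4% were higher and 3.84% lower. None of the 4 measured receptors, 6 signal transducers, 5 interferon regulatory factors and 4 negative regulators passed 2-fold in either direction. Ifnar1, the type I receptor chain, stood at 1.03 and Irf9, a subunit of the same complex as Stat2, at 1.55. The other induced genes split, with 1 of 12 measured higher and 3 lower.

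Lgals9, a galectin, was highest at 9.34 (4.23 to 24.4, 7 and then 53 UMIs), followed by the RNA sensor Ifih1 at 2.76 (1.97 to 3.92, 51 and 114 UMIs) and the factor Irf1 at 1.70 (0.973 to 3.0). Cmpk2, a mitochondrial nucleotide kinase, was lowest at 0.380 (0.202 to 0.676, 52 and 16 UMIs), then Rsad2 at 0.426 (0.242 to 0.718, 58 and 20 UMIs) and Samd9l, a restriction factor, at 0.448 (0.305 to 0.645, 113 and 41 UMIs). Lgals9, Cmpk2 and Rsad2 reached 50 UMIs mainly through the library where they are high, and Ifih1 and Samd9l less so. The highest and lowest values are therefore a description. Ifi27 and Xaf1 had higher ratios than any other measured pathway gene, although the interval of Lgals9 overlaps theirs. The 9 genes and the pathway list were chosen with earlier results of these data known, so nothing is read from this order.

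**Figure D4:**
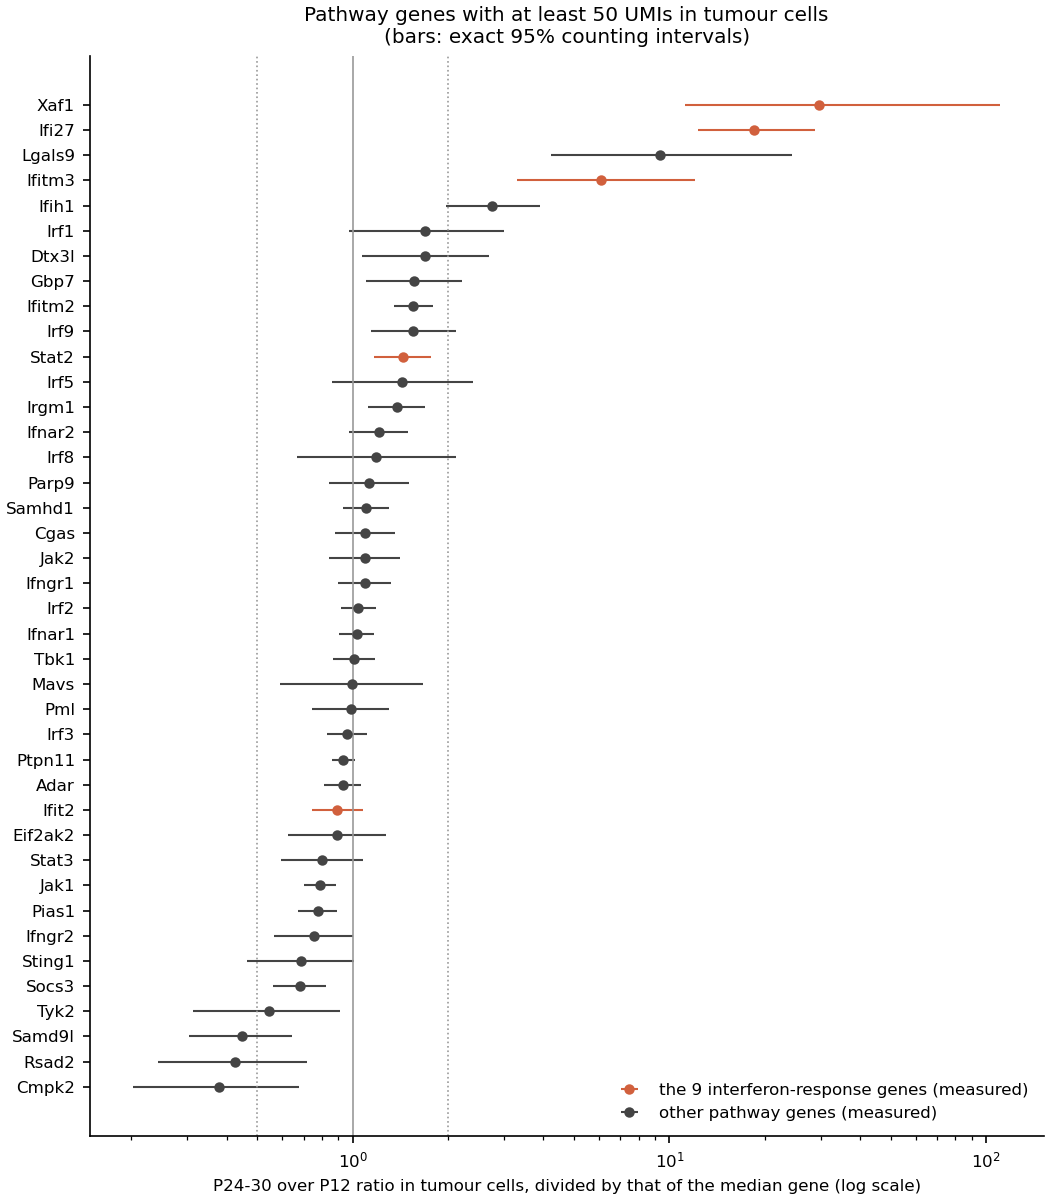
Age ratio in tumour cells, divided by that of the median gene (horizontal axis, log scale), of the interferon-response genes and the other named pathway genes with at least 50 UMIs (vertical axis, 1 gene not shown), with exact 95% counting intervals. Ifi27 (18.5) and Xaf1 (29.6) lie to the right of all other genes shown, most of which lie between 0.5 and 2, and Cmpk2 lies lowest at 0.380.

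In microglia-like cells 40 pathway genes reached 10 UMIs, with a median log2 ratio of 0.40. Of these, 13 were at least 2-fold higher at P24-30 and 7 lower, against 18.8% and 11.6% of 4946 genes. Among those with 50 UMIs, Ifi27l2a, a paralog of Ifi27, was highest at 4.76 (3.29 to 7.0, 42 and 100 UMIs), then Lgals3bp at 3.16 (1.98 to 5.13) and the phosphatase Ptpn6 at 1.79. The lowest were Ifngr1 at 1.17, Ifnar2 at 1.24 and Lgals9 at 1.31. Against tumour cells, 40 of 54 measured pathway genes were at least 2-fold higher in microglia-like cells at P24-30 and 6 lower, and 39 and 7 of 52 at P12. Over all genes, 17.0% of 13306 were higher at P24-30 and 17.4% of 12851 at P12. Genes that reached the minimum of 10 UMIs through the group where they are high had to differ, which limits these counts. Only pathway genes with 50 UMIs over both classes were ranked. Of these, Lgals3bp (627), Ifi27l2a (560) and Irf8 (148) had the widest P24-30 ratios, and Psmb8 (310), Irf8 (110) and Rsad2 (17.3) the widest at P12. All 18 microglia-like Rsad2 UMIs lay in the single P12 cell described above. The lowest with 50 UMIs were Ptpn11 (0.455), Irf3 (0.540) and Pias1 (0.864) at P24-30. At P12 they were Pml, with no microglia-like UMI, Socs3 (0.184) and Pias1 (0.226).

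Genes whose level over the 14 tags with at least 50 kept cells was most like that of a member were ranked by Pearson's r of log2(CPM + 10) among 7082 genes. All points come from 1 library and share the depth and cell make-up of each tag, so the values are a description. Stat2 was most like Ttc5 (r = 0.852), 2610008E11Rik (0.828) and Jmjd8 (0.822). Ifit2 was most like Tpm3-rs7 (0.898), Ift74 (0.896) and Dsn1 (0.887). Ifitm3 was most like Serinc3 (0.926), Nkain1 (0.864) and Spock2 (0.861), and Ifi27 most like Haus2 (0.885), Unc50 (0.839) and Wls (0.828). The other 5 genes had fewer than 200 UMIs and were not ranked, and none of the named genes is in the pathway list.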

How the data were processed

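Both libraries were sequenced as 3′ ends on an Illumina HiSeq instrument after digestion with TrypLE and collagenase I, per the labels' protocols. CASAVA and mm10 come from the submitters' processing notes, and no source used here names the aligner or counting tool. For P12 the authors deposited a table of counts for 24858 genes in 6000 barcodes, taken here as UMIs. For P24-30 they deposited natural log values (gene share of the cell, scaled to 10000, plus 1) for 19714 genes in 4991 cells. All 6195642 values above 0 gave whole UMIs within 0.001, so UMIs were recovered (12256463 against 12265399 at P12). The libraries shared 0 barcodes, and 28 P12 barcodes contain an N.

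Genes were matched by exact name (16055) and RefSeq synonyms (16550). Cells needed 500 UMIs and at most 20% mitochondrial UMIs, which removed 9 and 268 P12 and 153 and 49 P24-30 barcodes. Clustering used scanpy 1.11.5 (2000 variable genes, 30 components, 15 neighbours, Leiden resolution 1), and the thresholds for naming clusters were chosen with the clusters in view. Shallow cells were set apart (1 at P12, 198 at P24-30), and no doublet caller was run. Counts of 0 to 2 were set to 3 in ratios behind counts and medians. On simulated counts, the 2-fold calls relative to the median gene and the recovery of UMIs from log values were tested. The coverage of the intervals was not tested. The 9 genes, the pathway and marker lists and all rules were chosen with earlier results of these data known. Named pathway genes are the 3 highest and 3 lowest with at least 50 UMIs, and 1 pathway gene is counted in the list but not reported here. Alternatives covered cell filters, scaling, class assignment, UMI minimums and the removal of single cells, tags or clusters.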

Additional observations from a re-analysis of the deposited data

How the results depend on the processing

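Each age has 1 library, so no library could be left out, and depth limits every class but the tumour to few UMIs. No paired analysis was possible because each age has 1 library. With classes taken from markers alone, the count of genes at least 2-fold higher in P12 microglia-like cells went from 4 to 2, and Ifit2 turned to 0.393 on the side of the tumour. In neuron-like cells alone, the tumour count of 3 went to 1 (2 genes measured), and Irf7 and Bst2 turned to 0.563 on 1 UMI per age. For the other pathway genes in tumour cells, a minimum of 100 UMIs gave 2 genes past 2-fold (1 higher, 1 lower, 27 measured) in place of 5, a minimum of 20 UMIs gave 4 higher, and a 1.5-fold threshold gave 11 genes, 7 of them higher. At 1000 UMIs per cell, at least 2 of the 9 genes were seen in 0.368% of P24-30 tumour and 20.8% of P24-30 microglia-like cells. Of single values, 162 of 170 age ratios, 135 of 139 class ratios and 43 of 45 tag levels stayed inside the counting interval of the main value. Many of these intervals are wide, and a ratio whose interval holds 1 could change direction and still be inside it. Among ratios of at least 2-fold in the main setting, 2 age ratios and 1 class ratio changed direction. Without 1 cell each, Irf7 in G11 was 5.31 CPM and Isg15 in G9 was 0. The causes were not tested.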
